A study of Homo sapiens with 6 samples.

Results

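Adrenomedullin and vasoactive intestinal peptide (VIP), the receptors that bind them and the accessory proteins of those receptors were followed in breast cancer cells exposed to activin B. The 9 genes were ADM and VIP for the peptides, CALCRL, VIPR1, VIPR2 and ADCYAP1R1 for the receptors, and RAMP1, RAMP2 and RAMP3 for the accessory proteins. Every probe set that the array annotation assigns to 1 of these symbols alone was taken, which gave 14 of the 54613 probe sets compared, for 9 of 19775 genes. The family was chosen by gene symbol but selected on measured values as well, since it was gathered with the log2 differences between activin B and vehicle on these same arrays known, lower ADM and VIPR1 among them, so those differences are given here as a description and support nothing beyond it.

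SUM-LM1 cells, a lung-metastatic derivative of the human breast cancer line SUM159, were compared between 2 groups of 3 biological replicates, 1 array each. The activin B group was kept for 6 h with recombinant human activin B at 50 ng/ml, a TGF-beta family ligand built from a pair of inhibin beta B chains. The vehicle group was given bovine serum albumin in buffered saline for the same time. Cells of both groups were floating in ultra-low attachment plates in HuMEC medium, seeded at 12500 per ml, and all came from a single line in culture, without the endothelial cells, nerves or immune cells that meet these peptides in tissue.

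Adrenomedullin is a secreted peptide that widens blood vessels and supports endothelial barriers and lymphatic growth, and its gene is a well known target of hypoxia-inducible factors. Its receptor is CALCRL, which reaches the cell surface only with a receptor activity-modifying protein (RAMP): RAMP1 makes it a receptor for calcitonin gene-related peptide, whereas RAMP2 or RAMP3 make it an adrenomedullin receptor. VIP is a neuropeptide that relaxes smooth muscle and restrains inflammation, and it binds VIPR1 and VIPR2 (VPAC1 and VPAC2) about as well as the related peptide PACAP does, whereas ADCYAP1R1 (PAC1) prefers PACAP. All of these are class B receptors that act mainly through the Gs protein and cyclic AMP.

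Promoter sequences are shown for ADM and VIPR1 because these were the genes that differed, and for VIP because it holds a well known cyclic AMP response element. They are the bases directly before annotated starts in RefSeq, build GRCh38.p14, plus strand, 5′ to 3′, for ADM at chr11:10304823-10305072 and for VIPR1, which has 2 starts in that table, at chr3:42489049-42489298 and chr3:42502393-42502642. For VIP the stretch from 110 to 51 bases before the start is given, chr6:152750687-152750746. Capitals mark matches to the motifs listed after them.
ADM: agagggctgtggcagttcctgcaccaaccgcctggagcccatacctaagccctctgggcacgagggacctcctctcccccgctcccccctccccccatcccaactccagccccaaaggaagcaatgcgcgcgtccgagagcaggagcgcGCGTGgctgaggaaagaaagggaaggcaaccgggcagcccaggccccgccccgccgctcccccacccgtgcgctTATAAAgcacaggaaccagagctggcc
VIPR1, first start: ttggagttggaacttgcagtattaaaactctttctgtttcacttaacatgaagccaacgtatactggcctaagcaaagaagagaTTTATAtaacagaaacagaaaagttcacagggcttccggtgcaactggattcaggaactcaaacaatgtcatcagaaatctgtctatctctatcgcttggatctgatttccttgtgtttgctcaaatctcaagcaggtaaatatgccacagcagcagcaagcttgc
VIPR1, second start: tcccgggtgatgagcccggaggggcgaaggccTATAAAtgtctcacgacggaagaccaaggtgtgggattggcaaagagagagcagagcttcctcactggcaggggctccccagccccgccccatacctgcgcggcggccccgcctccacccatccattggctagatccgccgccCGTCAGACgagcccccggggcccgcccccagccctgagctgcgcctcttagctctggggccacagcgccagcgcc
VIP: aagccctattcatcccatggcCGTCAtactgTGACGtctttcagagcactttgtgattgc

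Searched on both strands of the 250 bases before each start were GTCTG (the SMAD box), GGCGCC (a GC-rich SMAD element), ACGTG and GCGTG (cores of hypoxia-response elements), TGACG (the core of the cyclic AMP response element) and TATAAA (the TATA box). The ADM window held 1 GCGTG, from 101 to 97 bases before the start, and a TATAAA from 27 to 22 bases before it, and none of the other motifs. GCGTG occurs in 32.2% and TATAAA in 10.7% of the 35114 windows of that length in the table, at any position and on either strand. A match somewhere in a window is thus not rare for either motif, and the share with TATAAA placed as in ADM was not counted. Upstream of its first start VIPR1 had only a TATAAA on the minus strand, while its second window had 1 GTCTG and 1 TGACG that overlap in the run CGTCAGAC, from 75 to 68 bases before the start, and a TATAAA farther upstream. GTCTG occurs in 38.0% and TGACG in 21.2% of all windows. VIP carried 2 TGACG, from 89 to 85 and from 79 to 75 bases before its start, as did 2 or more in 4.8% of all windows. ADM and the second VIPR1 window had a GC content of 68.0% and 69.2%, against 40.4% for the first VIPR1 window and 34.0% for VIP. Which start these cells use was not measured, and a match is only a match of letters.

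Signals are log2 values that the authors normalized over all arrays. The median over all probe sets was 6.69, and a mean under it is called dim here. Brightness also depends on the probes, so the genes are not ranked by it. ADM, VIPR1, RAMP1 and 1 of 3 probe sets of VIPR2 lay above that median, and the other 10 probe sets were dim, CALCRL, RAMP2, RAMP3, VIP and ADCYAP1R1 with all of theirs. The arrays had nearly equal medians, and activin B replicate 3 stood apart from the others on the first principal component of all probe sets (21.7 against -10.6 to 5.70). This component held 29.5% of the variance. The second, with 21.4%, set the groups apart, at 4.18 to 13.0 in activin B and -11.4 to -4.08 in vehicle.

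**Figure D1:**
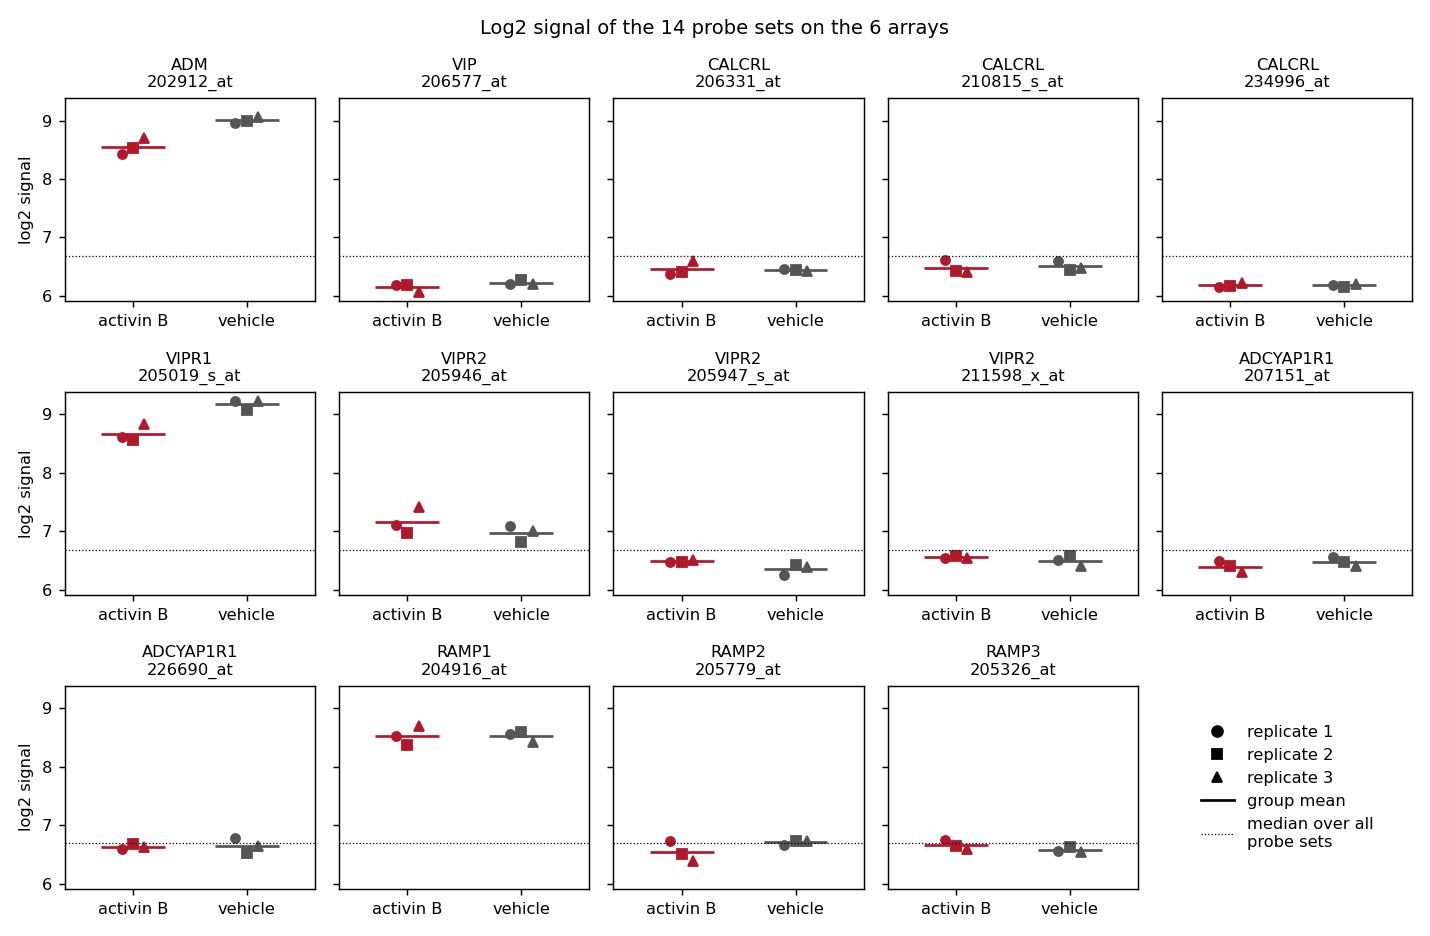
Log2 signal of the 14 probe sets, one panel each, on the 3 activin B arrays (red, left) and the 3 vehicle arrays (grey, right), with symbols for the replicate, bars for group means and a dotted line at 6.69, the median over all probe sets. Only in the panels of ADM and VIPR1 do the groups stand clearly apart; RAMP1 lies above the dotted line with overlapping groups, and most other panels lie on or under the dotted line.

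Of the peptide genes, ADM was well above the median and lower in activin B. Its log2 signal was 8.43, 8.53 and 8.70 in the activin B arrays, against 8.96, 8.99 and 9.06 in the vehicle arrays. Every activin B array thus lay under every vehicle array, by 0.26 between the nearest pair, and the activin B arrays were spread more widely than those of vehicle. The means were 8.556 ± 0.135 in activin B and 9.002 ± 0.048 in vehicle (SD, n = 3 each), 1.36-fold lower, and the log2 change of -0.45 ± 0.07 (SE) had a 95% interval from -0.60 to -0.29. It passed in the comparison of all probe sets by limma (adjusted p = 0.0253).

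VIP, the other peptide gene, was dim on every array. Its values were 6.19, 6.19 and 6.07 in activin B, against 6.20, 6.27 and 6.21 in vehicle. The groups did not overlap but came within 0.01 of each other, and the log2 change was -0.08 (95% interval -0.21 to 0.06; adjusted p = 0.995). At this brightness a probe set can sit at background, so the values do not show whether the cells make VIP at all.

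Among receptors VIPR1, a receptor for VIP and PACAP found on many epithelia, was the one that stood apart. It measured 8.62, 8.57 and 8.83 in activin B, against 9.23, 9.08 and 9.23 in vehicle. The highest activin B value, of replicate 3, remained 0.25 under the lowest vehicle value, of replicate 2. The group means were 8.67 ± 0.14 in activin B and 9.18 ± 0.09 in vehicle (SD, n = 3 each), so that VIPR1 was 1.42-fold lower, with a log2 change of -0.51 ± 0.08 (SE; 95% interval -0.67 to -0.34; adjusted p = 0.0137). The gene is read by a single probe set whose suffix, _s_at, marks probes that can match several transcripts, and no gene-specific set was there to compare with it.

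VIPR2, the second VIP receptor, had positive log2 changes in its 3 probe sets, none of which passed. The brightest, 205946_at, gave 7.10, 6.97 and 7.42 in activin B, against 7.09, 6.82 and 7.01 in vehicle. The groups overlapped: activin B replicate 3 was highest, replicate 1 lay just above the vehicle arrays and replicate 2 among them. The log2 change was 0.20 (95% interval -0.02 to 0.41; adjusted p = 0.959), or 0.07 without activin B replicate 3 and 0.29 without replicate 2. The dim set 205947_s_at had 6.47, 6.47 and 6.51 in activin B, against 6.26, 6.43 and 6.39 in vehicle, without overlap and with a log2 change of 0.12 (95% interval -0.02 to 0.26; adjusted p = 0.959). The set 211598_x_at, of a kind prone to cross-hybridisation, had a log2 change of 0.06 (95% interval -0.08 to 0.20). Thus VIPR1 and VIPR2 had changes of opposite sign, and a difference between these changes was not tested.

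CALCRL, the receptor that adrenomedullin needs, was dim in its 3 probe sets and nearly the same in both groups. The brightest, 210815_s_at, measured 6.62, 6.43 and 6.40 in activin B, against 6.59, 6.45 and 6.48 in vehicle. The log2 changes of the 3 sets were -0.02, 0.02 and 0.0022, and the widest of their 95% intervals ran from -0.18 to 0.14. ADCYAP1R1, the PACAP receptor, was likewise dim: its brighter set 226690_at had 6.59, 6.67 and 6.62 in activin B, against 6.78, 6.53 and 6.64 in vehicle, a log2 change of -0.02 (95% interval -0.17 to 0.13). The other set of ADCYAP1R1 had a log2 change of -0.09 (95% interval -0.24 to 0.06).

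Of the accessory proteins RAMP1 was the bright one, and its groups overlapped. It measured 8.53, 8.38 and 8.69 in activin B, against 8.55, 8.59 and 8.42 in vehicle, a log2 change of 0.01 (95% interval -0.16 to 0.18; adjusted p = 0.999), or -0.07 without activin B replicate 3. The interval is narrow enough to leave out a change of the size seen for ADM or VIPR1. RAMP2, a partner that turns CALCRL into an adrenomedullin receptor, was dim and had 6.73, 6.51 and 6.39 in activin B, against 6.66, 6.73 and 6.72 in vehicle. Here activin B replicates 2 and 3 lay under all vehicle arrays and replicate 1 lay just above them, for a log2 change of -0.16 (95% interval -0.33 to 0.01; adjusted p = 0.959), and it was -0.26 without activin B replicate 1 (adjusted p = 0.509) and -0.08 without replicate 3. RAMP3, the other such partner, was dim too, with 6.74, 6.64 and 6.59 in activin B, against 6.56, 6.62 and 6.54 in vehicle. Its log2 change was 0.08 (95% interval -0.06 to 0.22; adjusted p = 0.995), with overlapping groups.

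**Figure D2:**
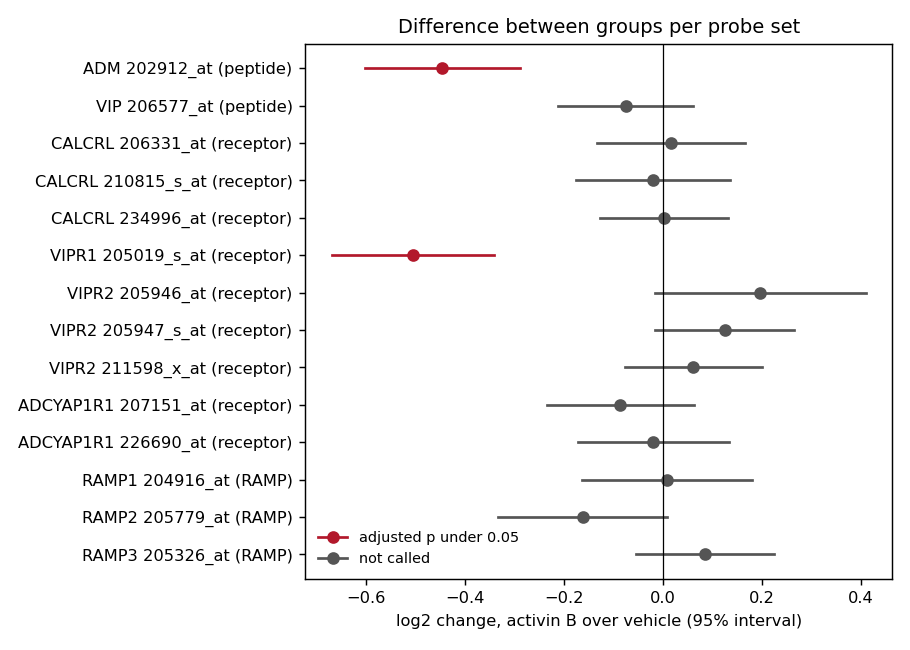
Log2 change of each probe set, activin B over vehicle, with its 95% interval from limma, ordered by peptides, receptors and RAMPs. Red marks an adjusted p under 0.05: the intervals of ADM (-0.60 to -0.29) and VIPR1 (-0.67 to -0.34) lie wholly under 0, and the 12 grey intervals reach across it.

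Counted over the family, 2 of the 14 probe sets fell and 0 rose at an adjusted p under 0.05, against 0.0476% falling and 0.0732% rising of all 54613 probe sets; since the genes were gathered with these falls known, nothing is read from the difference. The median log2 change was -0.01 over the 14 probe sets and 0.00 over all probe sets, with 7 of the 14 below 0 and 7 above. The groups did not overlap in 3 probe sets that were lower in activin B and 1 that was higher, against 4.89% and 4.91% of all probe sets and 9.79% in either direction. Of the 12 that did not pass, all had log2 changes between -0.16 and 0.20, and their 95% intervals together spanned -0.33 to 0.41.

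Leaving out single arrays moved ADM and VIPR1 little in size but ended their calls in most cases. Without activin B replicate 3 both were lower still, at -0.52 for ADM and -0.58 for VIPR1 (adjusted p = 0.00443 and 0.00231). The log2 change of ADM was -0.38 and -0.43 without activin B replicates 1 and 2, and -0.47, -0.45 and -0.42 without vehicle replicates 1, 2 and 3, all no longer passing (adjusted p = 0.0928, 0.165, 0.0791, 0.164 and 0.174). That of VIPR1 was -0.48 and -0.45 without activin B replicates 1 and 2, and -0.48 without either vehicle replicate 1 or 3 (adjusted p = 0.0511, 0.120, 0.0839 and 0.104), and it passed without vehicle replicate 2 (-0.56; adjusted p = 0.0368). In every one of these fits the sign was the same. Without activin B replicate 3 the 12 probe sets that had not passed still did not, with log2 changes between -0.08 for RAMP2 and 0.12 for RAMP3. The signs of RAMP1 and of the 3 CALCRL sets turned, all from values near 0, and VIP and the dimmer ADCYAP1R1 set were at -0.03 and -0.04.

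**Figure D3:**
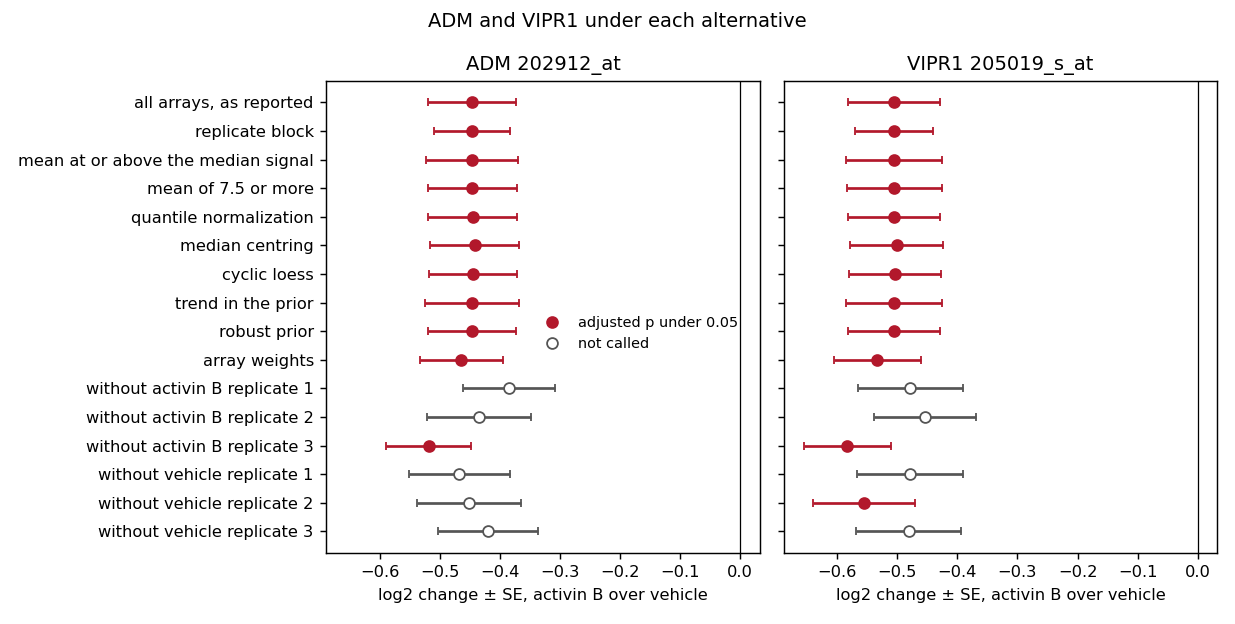
Log2 change of ADM (left) and VIPR1 (right) with its standard error in the reported fit and in each alternative fit. Filled red points passed at an adjusted p under 0.05 and open grey points did not; all points lie between -0.58 and -0.38, and every grey point is a fit with 1 array left out.

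Other genes that make, receive or carry these signals were set beside the family in 9 lists, with 1 probe set per gene, its brightest. Of 109 measured genes 1 rose and 0 fell, against 0.101% rising and 0.091% falling of all 19775 genes, and their median log2 change was 0.02, against 0.00 over all genes. Over both directions 0.192% of all genes and 0.121% of all probe sets passed. The gene that rose was HK2, a hexokinase of the hypoxia list.

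Of 9 further peptide genes of the calcitonin and VIP families and 11 further class B receptors none passed, with medians of 0.04 and -0.01. GCG, encoding glucagon, and GHRH, encoding growth hormone-releasing hormone, had the smallest p of the peptides (log2 change 0.10 and 0.08), and SCTR and GLP1R, the secretin and GLP-1 receptors, those of the receptors (0.11 and -0.10), all with adjusted p of 0.992 or more. Among 11 genes of peptide maturation and clearance none passed either, and the smallest p were those of the proprotein convertase PCSK6 (-0.16; adjusted p = 0.880) and the carboxypeptidase CPE (0.11; adjusted p = 0.995). PAM, the enzyme that amidates adrenomedullin and VIP and was chosen after its values were seen, was bright, at 8.93 ± 0.07 in activin B and 8.86 ± 0.05 in vehicle (SD, n = 3 each; log2 change 0.07).

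Downstream of the receptors no gene passed in any list. Among 12 genes of Gs and cyclic AMP production, ADCY9 and ADCY3, both adenylyl cyclases, had log2 changes of -0.16 and 0.11 (adjusted p = 0.919 and 0.992). Of 14 effectors, CREM, a cyclic AMP-responsive transcription factor, measured 9.15, 8.92 and 8.99 in activin B, against 8.85, 8.85 and 8.66 in vehicle. These groups did not overlap, and the log2 change of 0.24 ± 0.08 (SE; adjusted p = 0.708) did not pass, nor did that of the popeye protein gene POPDC3 (0.08; adjusted p = 0.995). Among 12 phosphodiesterases, the enzymes that break down cyclic AMP, PDE4D and PDE1C had 0.19 and -0.13 (adjusted p = 0.934 and 0.987). The summed log2 signal of the 12 was 85.48 to 85.65 in activin B and 84.5 to 85.21 in vehicle, without overlap. Such sums overlapped in every other list around the family except that of the hypoxia genes. Of single probe sets, 9.79% had groups without overlap. Of 9 genes for desensitization and trafficking, the scaffold gene NHERF1 had -0.28 and the receptor kinase gene GRK6 had 0.18 (adjusted p = 0.934 and 0.959). Of 13 target genes of cyclic AMP and CREB, NR4A1, a nuclear receptor, had 0.24 and FOS had -0.18 (adjusted p = 0.891 and 0.934). The medians of these 5 lists lay between -0.03 and 0.07.

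**Figure D4:**
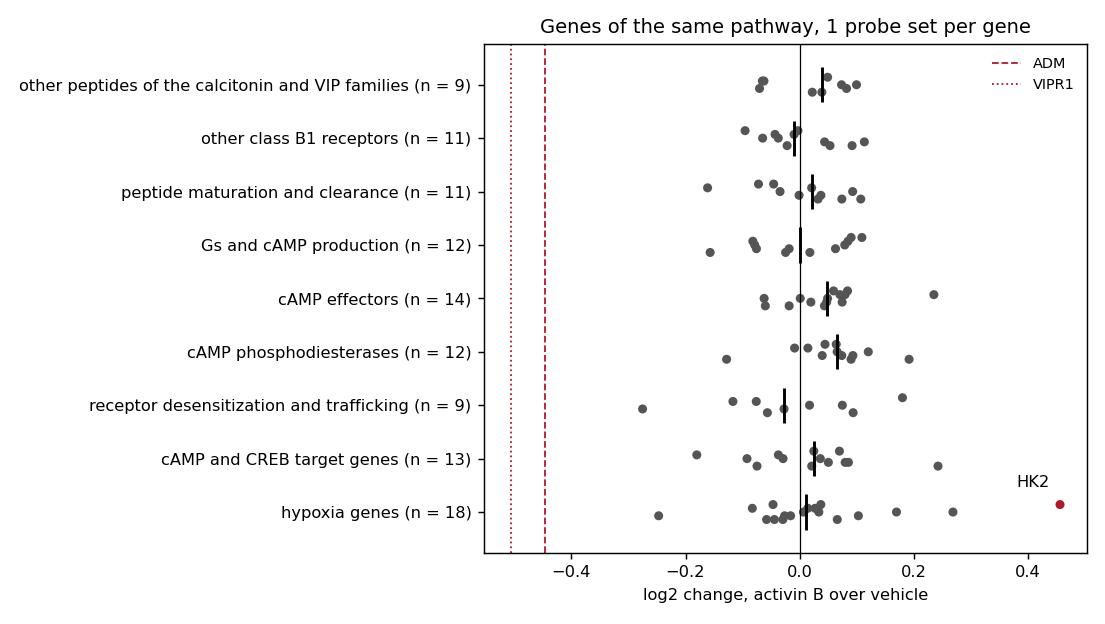
Log2 change, activin B over vehicle, of the genes of 9 lists around the family, 1 point per gene and a black bar at each list median, with the number of measured genes after each name. HK2 is the only red point (adjusted p under 0.05), and the vertical lines at ADM (-0.45) and VIPR1 (-0.51) lie to the left of every point.

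ADM belongs to the genes that hypoxia is known to raise, so 18 other genes of the hypoxia response were counted, most of them its targets but HIF1A, EPAS1, HIF1AN and VHL regulators of it. HK2 rose, none fell and the median log2 change was 0.01. The summed log2 signal of the list was 180.7 to 180.9 in activin B and 179.9 to 180.3 in vehicle, without overlap, HK2 included. With HK2 left out of the sum, the groups overlapped. HK2 measured 10.76, 10.72 and 10.72 in activin B, against 10.35, 10.10 and 10.37 in vehicle, a log2 change of 0.46 ± 0.08 (SE; adjusted p = 0.0253), about as large as the change of ADM and of the opposite sign. HK2 is read by 3 probe sets, and averaging them ended the call. The glucose transporter gene SLC2A1 had -0.25 ± 0.07 (SE; adjusted p = 0.4001), without overlap between the groups. VEGFA and HIF1A, chosen after their values were seen, had log2 changes of -0.06 and 0.04.

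Over the 6 arrays, ADM and VIPR1 followed each other with a Pearson r of 0.964, a description that rests largely on both being lower in the 3 activin B arrays. Among 12644 genes with a mean at or above the median signal, the 4 most like ADM by this measure were PRMT9, CHST15, USP6NL and NAXE (r between 0.986 and 0.992), of which CHST15, a sulfotransferase, also passed (log2 change -0.41 ± 0.07, SE; adjusted p = 0.0218). The 4 most like VIPR1 were ZNF785, TSPAN9, MRPS6 and SLC5A1 (r between 0.983 and 0.995), with log2 changes between -0.21 and -0.14 and none passing. There were 23 genes closer to ADM than VIPR1 was.

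The labelled cell type was checked against markers. VIM, CD44, EGFR, CAV1 and AXL, which mesenchymal breast cancer lines express, lay between 9.32 and 13.90 in activin B and between 9.35 and 13.89 in vehicle, and of 8 luminal epithelial markers 4 lay above the median and 4 were dim. The bright ones included the keratins KRT18 and KRT8, at 11.99 and 9.035 in activin B and 12.09 and 9.002 in vehicle, and the dim ones CDH1 and EPCAM, at 6.31 and 6.36 in activin B and 6.27 and 6.20 in vehicle. No gene of the 6 marker lists passed. For endothelial cells, on which CALCRL and RAMP2 are best known, 3 of 12 markers lay above the median and the others were dim. The 3 were PECAM1, at 7.65 in activin B and 7.84 in vehicle, ERG, at 8.45 and 8.60, and PROX1, at 6.68 and 6.71. CDH5 and KDR were among the dim ones, at 6.10 and 6.17 in activin B and 6.08 and 6.33 in vehicle. The summed log2 signal of the 12 was 80.04 to 80.58 in activin B and 80.65 to 81.87 in vehicle, without overlap, and that of 6 neuronal markers was 45.83 to 46.07 in activin B and 45.19 to 45.74 in vehicle. In the leukocyte, fibroblast and luminal lists the sums overlapped. Above the median lay 4 of 6 fibroblast markers, 3 of 6 neuronal markers and 1 of 6 leukocyte markers. COL1A1 of the fibroblast list was at 11.65 in activin B and 11.44 in vehicle, and TUBB3 of the neuronal list at 12.33 and 12.32. A bright marker alone therefore does not show that such cells were present. Log2 signals of thr, a bacterial poly-A transcript of the kind added to sample RNA before labelling and read by 6 probe sets, were 0.29 to 0.54 higher in the activin B arrays. Those of dap, lys and phe, other bacterial controls, differed only by -0.10 to 0.09. The part of the shifts in marker sums and thr in the lower ADM and VIPR1 was not tested.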

How the data were processed

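RNA of 6 cultures (50 ng each) was hybridised to Affymetrix Human Genome U133 Plus 2.0 arrays. Expression values were made by the authors with robust multiarray averaging (Chipster) and deposited as log2 signal, 1 column per array. This step equalizes the distributions of the arrays, which removes shifts shared by most transcripts, and compresses differences near background. No scan date or raw image entered, and batches were not tested.

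Groups and replicate numbers came from the sample titles. Without the 62 control probe sets of the array, 54613 were compared with limma 3.58.1 in R 4.3.3 (linear model by group, empirical Bayes), the kind of test that the study used, with Benjamini-Hochberg adjustment over all of them and a threshold of 0.05. With 3 arrays in each group the median SE of a log2 change was 0.07, and p values reflect only how much these 6 samples vary. The empirical Bayes step draws SEs toward a value shared by all probe sets, so an SE need not match the SDs beside it. Symbols came from the platform annotation, checked by gene identifier against RefSeq (GRCh38.p14): 41091 probe sets had 1 symbol, 1801 several and 11721 none, and 41037 matched. Promoters were in that table for 7 of the 9 genes. For 14 list genes no probe set could be assigned.

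Members, lists and motifs were chosen with earlier results of these data known. Named were all member probe sets, called list genes, the 2 genes of each list with the smallest p, and the 4 genes most like each called member by Pearson r. The test was tried on simulated arrays with known changes and independent noise. This checked the code only and does not bear on the calls of ADM and VIPR1. Alternatives were a replicate block, filters on dim probe sets, other normalizations, prior settings and array weights, leaving out each array, and other probe sets per gene. Figures were drawn with matplotlib 3.10.9.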

Additional observations from a re-analysis of the deposited data

How the results depend on the processing

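ADM and VIPR1 stayed below 0 in all 15 alternative fits (-0.52 to -0.38 and -0.58 to -0.45, adjusted p 0.00443 to 0.174 and 0.00231 to 0.120). Calls were lost only with 1 array left out, 5 times for ADM and 4 for VIPR1, so that the number of family probe sets that fell ran from 0 to 2 over these omissions; 0 rose in any fit. The omissions gave 7 to 26 falling and 25 to 50 rising probe sets over the whole array, against 26 and 40 with all arrays. The 50 rising came without activin B replicate 1, and the 26 falling without activin B replicate 3. In the other direction both fits gave fewer calls: 13 fell without activin B replicate 1, and 29 rose without activin B replicate 3. Fewer arrays can also lower the number of calls, and the cause was not tested. Rising probe sets numbered 24 with only means of 7.5 or more, a fit on fewer probe sets. With the mean of all probe sets of a gene, 0 genes of the pathway lists rose, against 1, HK2. ADM and VIPR1 are each read by 1 probe set, so other choices of probe set left their values as they were, and the choice of gene-specific sets gave no value for VIPR1. Filters on dim signal likewise gave none for the members they removed. For the other members, no alternative gave a call. Dim signal limits 10 of the 14 probe sets, where a small change could be missed.

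With the replicate number as a block, 44 probe sets fell and 53 rose, and no call of the family changed. Same-numbered arrays correlated in their deviations from the group means by 0.162, 0.041 and 0.192, each array best with its own number, which is a hint from the data and not a stated pairing.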
